A study of Mus musculus with 8 samples.

Results

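Snail, Scratch and ZEB proteins, together with the zinc-finger factors that set neuronal fate, were followed by RNA-seq in mouse neural progenitor cultures in which Bcl6 had been induced. The 10 genes were taken by symbol, out of 14954 genes measured. They are 6 neuronal factors, Scrt1, Scrt2, Insm1, Myt1, St18 and Rest, and 4 mesenchymal factors, Snai1, Snai2, Zeb1 and Zeb2. All 10 had reads in every library, and no filter on low values was applied here. The genes were chosen with the comparison of induced and control cultures already known, so their differences are given as a description. No p-value is printed for them, and no support is drawn from the calls that are mentioned. The related lists further below were also chosen with earlier results of these data known. Their counts and p-values are a description too, and no support is drawn from them.

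The cells were A2 lox.Cre Bcl6 mouse embryonic stem cells, which carry Bcl6 under a tetracycline-inducible promoter, differentiated into cortical-type progenitors in a defined medium. Cyclopamine, which blocks the hedgehog pathway, had been given to all cultures at 400 ng/ml earlier in the differentiation. The 4 Bcl6-induced cultures received doxycycline at 1 µg/ml for 24 h at day 12, and the 4 control cultures received DMSO, with differentiations numbered 1 to 4 in each group. Doxycycline was not analysed here on cells lacking the transgene, so Bcl6 and the drug cannot be told apart. The labels do not say how far the differentiations were independent, so the spread given is that between these libraries.

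Snail and Scratch proteins form one superfamily of zinc-finger repressors that bind the E-box CAGGTG, and the ZEB proteins bind the same kind of site with their own zinc fingers. Snai1, Snai2, Zeb1 and Zeb2 are best known for repressing E-cadherin (Cdh1) in the epithelial-mesenchymal transition and for the departure of neural crest cells from the neural tube, while the Scratch genes are expressed in newborn neurons, where in the mouse cortex they promote detachment from the ventricular surface. Insm1 drives the formation of intermediate progenitors, Myt1 and St18 are zinc-finger factors that accompany neuronal differentiation, and REST silences neuronal genes in cells that are not neurons through a sequence called RE1. Bcl6 is itself a zinc-finger repressor and favours neurogenesis in the cortex.

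Promoter windows from RefSeq (build GRCm38.p6) were found for 3 of the 10 genes, Myt1, Snai1 and Zeb2, which have 3, 1 and 4 annotated starts. Each window runs from 250 bases before the start to 50 after it. The 250 bases before 1 start of each gene are shown, 5′ to 3′ on the gene's strand. Those of Snai1 and Zeb2 show where the E-box and the BCL6 core motif lie, and those of Myt1 start 1 hold neither. The Myt1 stretch is chr2:181763082-181763331 on the plus strand, that of Snai1 is chr2:167537945-167538194 on the plus strand, and that of Zeb2 start 2 is chr2:45113280-45113529 on the minus strand. Capitals mark matches to CAGGTG or to TTCNNNGAA, on either strand.
Myt1: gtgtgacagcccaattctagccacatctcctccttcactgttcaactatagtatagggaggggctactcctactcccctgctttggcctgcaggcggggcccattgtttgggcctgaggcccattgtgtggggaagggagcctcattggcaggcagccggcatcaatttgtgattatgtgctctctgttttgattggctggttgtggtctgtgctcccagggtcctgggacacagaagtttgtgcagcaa
Snai1: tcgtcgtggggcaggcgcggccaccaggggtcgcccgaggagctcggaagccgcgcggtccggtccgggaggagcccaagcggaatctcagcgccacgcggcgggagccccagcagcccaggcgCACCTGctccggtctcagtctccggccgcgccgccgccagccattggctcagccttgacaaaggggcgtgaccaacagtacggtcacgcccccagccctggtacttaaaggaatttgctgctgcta
Zeb2: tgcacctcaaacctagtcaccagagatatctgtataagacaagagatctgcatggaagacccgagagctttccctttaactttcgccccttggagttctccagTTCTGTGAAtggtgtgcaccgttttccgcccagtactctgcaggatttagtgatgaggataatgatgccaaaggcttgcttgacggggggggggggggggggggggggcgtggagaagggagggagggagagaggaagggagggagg
The Snai1 window held 1 match to CAGGTG, on the minus strand and so printed as CACCTG, which begins 126 bases before the start. The window of Zeb2 start 2 held 1 match to TTCNNNGAA, the core shared by BCL6 and STAT sites, as TTCTGTGAA beginning 147 bases before the start, and the overlapping window of start 3 held the same letters. The Myt1 windows held neither motif. Of 32851 RefSeq promoter windows of this length, 20.2% held CAGGTG and 8.3% held TTCNNNGAA on either strand. The E-box CAGCTG (16.3% of windows) was in none of the 8 windows of these genes. The general E-box CANNTG, which includes CAGGTG and CAGCTG and was in 72.3% of all windows, was in the Snai1 window at the marked site and in the windows of Myt1 starts 2 and 3.

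Values are given as CPM, the deposited value of a gene per M of its library's total. Induced libraries held 10.33 M to 15.02 M reads and control libraries 9.42 M to 9.74 M, so every control was shallower. Bcl6 had 393, 422, 427 and 325 CPM in induced libraries 1 to 4, against 6.61, 6.01, 7.12 and 6.21 CPM in controls 1 to 4. Control 1 stood apart by length of annotated exon sequence. Relative to the mean of the controls, the 10% of genes with most exon sequence had a median log2 difference of -0.35 in this library. The 10% with least had 0.30. In the same order the medians were 0.01 and -0.04 in control 2, 0.20 and -0.15 in control 3 and 0.14 and -0.10 in control 4. Control 1 is part of the mean from which these are taken. Both medians were between -0.07 and 0.06 in each induced library, taken from the induced mean. Over all genes 1019 were called at a limma adjusted p under 0.05, which is 6.81%. They were 681 higher and 338 lower in induced cultures, but with median-of-ratios scaling 536 were higher against 424 lower, and with upper quartile scaling 501 against 474. The total was 308, 350 and 649 without induced libraries 1, 2 and 3, 359 without control 2 and 1697 without control 1.

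Markers of other cells moved between the groups, beside 4.55% of all genes called higher and 2.26% called lower. Among cortical progenitor markers 1 of 8 was higher and 4 were lower in induced cultures, with a summed level of 471 to 637 CPM in induced and 733 to 888 CPM in control libraries. Of 4 neuronal markers 3 were higher, with a summed level of 1023 to 1213 CPM in induced and 627 to 756 CPM in control libraries. The pluripotency markers Pou5f1, Nanog, Zfp42 and Esrrb, which progenitors should lack, summed to 886 to 1013 CPM in induced and 864 to 937 CPM in control libraries, and 3 of the 4 (not Pou5f1) were higher. Of the 5 endoderm and mesoderm markers measured, 1 was higher (T), and their summed level was 123 to 134 CPM in induced and 74.1 to 94.8 CPM in control libraries. No measured marker was listed at 0 in any library, but no library had more than 2 of the 14954 genes at 0. The lowest mean deposited value of any gene was 15.1, so values above 0 do not show that a cell type was present. The part of these cell types in the values below was not tested. In bulk RNA, more cells of a type and more RNA per cell cannot be told apart.

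Both Scratch genes, Myt1 and the mesenchymal factor Snai1 were higher in every induced culture than in every control. Snai2, Zeb1 and Rest had log2 fold changes of -0.06, -0.00 and 0.14. Scrt1 was 2.43-fold higher by the ratio of means, Scrt2 1.86-fold, St18 1.82-fold, Myt1 1.67-fold, Snai1 1.57-fold and Insm1 1.504-fold. The levels of Insm1 and St18 overlapped between the groups, and Snai1 rested on 20 to 61 reads per library. The adjusted p of limma was under 0.05 for 3 of the 6 neuronal factors, all higher, and for none of the 4 mesenchymal factors, beside 4.55% of all genes called higher and 2.26% called lower. The groups did not overlap for 4 of the 10 factors, each higher, beside 10.7% of all genes higher and 6.17% lower in this sense. Nothing is read from these counts, since the members were chosen on this contrast. The median log2 fold change was 0.77 over the neuronal factors and -0.03 over the mesenchymal ones, beside 0.03 over all genes.

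**Figure D1:**
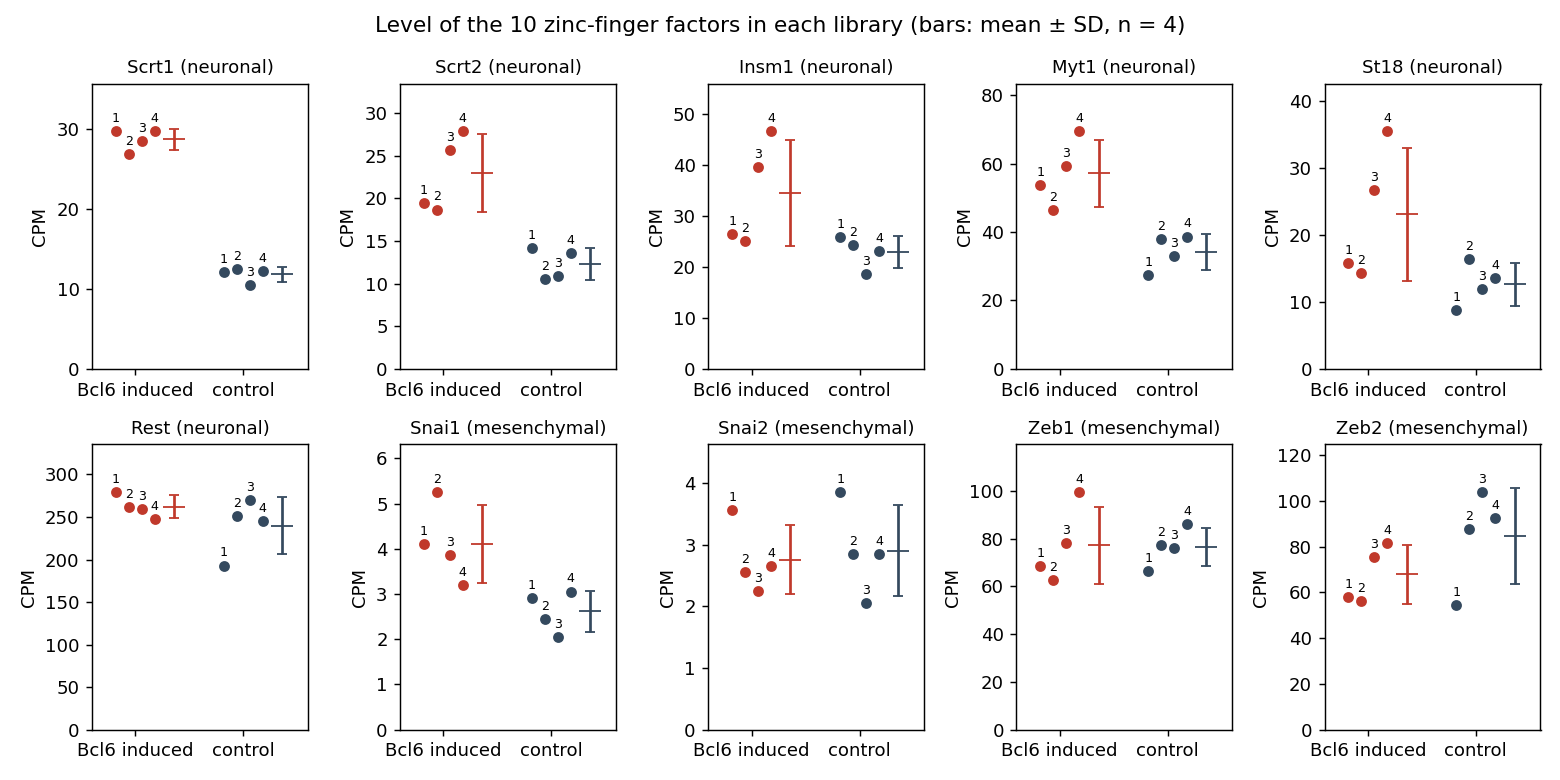
Level of each of the 10 zinc-finger factors, in CPM, with a point for each library (numbered by differentiation), Bcl6-induced on the left and control on the right, and bars for the mean ± SD (n = 4). Scrt1 shows 4 induced libraries at 26.9 to 29.8 CPM above 4 controls at 10.5 to 12.5 CPM, while the Zeb1 and Rest points of both groups overlap.

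Scrt1 (ENSMUSG00000048385, chromosome 15, 76516203 to 76522499, minus strand, GRCm38) is a Scratch repressor of newborn neurons. It had 29.8, 26.9, 28.6 and 29.7 CPM in induced libraries 1 to 4, against 12.1, 12.5, 10.5 and 12.3 CPM in controls 1 to 4. The lowest induced library was thus far above the highest control, and the libraries within each group were close. The mean was 28.7 ± 1.34 CPM in induced and 11.8 ± 0.91 CPM in control cultures (SD, n = 4 each), a log2 fold change of 1.28 ± 0.10 (SE). Reads ran from 297 to 447 in induced and from 102 to 118 in control libraries. The SD of Scrt1 among induced libraries, 0.07 on the log2 scale, was close to the 0.08 that counting alone gives at these reads. Only 26.3% of 13553 genes with a mean of at least 2 CPM had a smaller SD among induced libraries.

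Scrt2 (ENSMUSG00000060257, chromosome 2, 152081529 to 152095802, plus strand), the other Scratch gene of the mouse, had 19.4, 18.7, 25.7 and 27.9 CPM in induced libraries 1 to 4, against 14.1, 10.6, 10.9 and 13.6 CPM in controls 1 to 4. The groups did not overlap, but induced libraries 3 and 4 were higher than induced 1 and 2, and the gap between induced 2 and control 1 was small. The mean was 22.9 ± 4.57 CPM in induced and 12.3 ± 1.84 CPM in control cultures (SD, n = 4 each), a log2 fold change of 0.89 ± 0.16.

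Myt1 (ENSMUSG00000010505, chromosome 2, 181763332 to 181827797, plus strand) encodes a zinc-finger protein that in Xenopus embryos acts with proneural factors to promote neuronal differentiation. It had 53.7, 46.3, 59.2 and 69.5 CPM in induced libraries, against 27.4, 38.1, 33.0 and 38.7 CPM in controls. Each induced library exceeded each control, with control 1 the lowest and induced 4 the highest. The means were 57.2 ± 9.74 CPM in induced and 34.3 ± 5.25 CPM in control cultures, and the log2 fold change was 0.74 ± 0.14 (0.63 without control 1).

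St18 (ENSMUSG00000033740, chromosome 1, 6487231 to 6860940, plus strand), a relative of Myt1, had 15.7, 14.2, 26.7 and 35.4 CPM in induced libraries, against 8.72, 16.4, 11.9 and 13.5 CPM in controls. Induced libraries 3 and 4 lay well above all controls, but induced 1 and 2 did not reach control 2. The log2 fold change was 0.80 ± 0.28, and 0.56 without induced 4. Its spread among induced libraries was wide: the highest was 2.49 times the lowest, and 98.97% of 13553 genes had a smaller SD.

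Insm1 (ENSMUSG00000068154, chromosome 2, 146221921 to 146225020, plus strand), a factor of intermediate progenitors and of endocrine cells, showed the same division. It had 26.5, 25.1, 39.6 and 46.6 CPM in induced libraries, against 25.8, 24.2, 18.5 and 23.1 CPM in controls. Induced 1 and 2 were at the level of controls 1 and 2, and only induced 3 and 4 stood clear of them. The log2 fold change was 0.55 ± 0.19 and ranged from 0.39 without induced 4 to 0.69 without induced 2.

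Rest (ENSMUSG00000029249, chromosome 5, 77265491 to 77286432, plus strand), the repressor of neuronal genes, had 279, 262, 259.9 and 247 CPM in induced libraries, against 193, 251, 269.9 and 246 CPM in controls. All libraries but control 1 lay within 246 to 279 CPM. The means were 262 ± 13.3 CPM in induced and 240.0 ± 33.0 CPM in control cultures, a log2 fold change of 0.14 ± 0.10 that was 0.04 without control 1. Rest reads numbered 2554 to 4200 per induced library and 1818 to 2629 per control, so counting error was small.

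The proteins that work with REST showed no called change. Of 22 corepressors and regulators of REST, limma called 0, beside 6.81% of all genes. In this list 6 had an unadjusted p under 0.05, and limma-voom on the recovered reads also called 0. The median log2 fold change of the list was 0.02, beside 0.03 over all genes. Without control 1 it held 3 calls, 2 higher and 1 lower. The most abundant members were Usp7, a deubiquitinase that stabilises REST, at 472 ± 9.32 CPM in induced and 478 ± 37.5 CPM in control cultures (log2 fold change -0.01 ± 0.07, limma adjusted p = 0.937), and Kdm1a, the histone demethylase of the CoREST complex, at 353 ± 2.08 CPM in induced and 342 ± 18.6 CPM in control cultures (0.05 ± 0.06, limma adjusted p = 0.675). Srrm4, which splices Rest RNA into a form with less repressor activity, had 24.1, 22.9, 40.8 and 61.3 CPM in induced libraries, against 13.9, 17.2, 20.8 and 23.5 CPM in controls. It did not pass the test (log2 fold change 0.89 ± 0.29, limma adjusted p = 0.0894), and induced 2 lay below control 4.

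Neuronal genes with a known RE1, the class that REST silences, were higher in part. Of 25 measured, 6 (24.0%) were higher and 0 lower in induced cultures, with a median log2 fold change of 0.33, while 4.55% of all genes were called higher. The number was 1 without induced 1, 2 without induced 2, and 3 without control 2 or control 3. Tubb3, the neuronal beta-tubulin, had 291, 299, 335 and 384 CPM in induced libraries, against 189, 173, 128 and 189 CPM in controls (log2 fold change 0.96 ± 0.13, limma adjusted p = 0.0031). Tubb3 kept its call without any 1 library, and it is also among the neuronal markers above. Vgf, a secreted neuropeptide precursor, had 4.32 ± 0.68 CPM in induced and 2.09 ± 0.78 CPM in control cultures (1.10 ± 0.28, limma adjusted p = 0.0426). The synaptic vesicle protein Syp had 11.5 ± 1.11 CPM in induced and 7.37 ± 1.70 CPM in control cultures (0.67 ± 0.17, limma adjusted p = 0.0439). Sez6, a membrane protein of dendrites, had 21.3 ± 3.21 CPM in induced and 15.0 ± 0.67 CPM in control cultures (0.49 ± 0.12, limma adjusted p = 0.0337). Vgf and Syp kept the call in 2 of the 8 fits that leave out 1 library, and Sez6 in 3, and without induced 1 their adjusted p was 0.142 for Vgf, 0.147 for Syp and 0.121 for Sez6. Syp also lost it under upper quartile scaling (limma adjusted p = 0.0579). Chrnb2 and Mapk8ip2 made up the 6. Stmn2, whose RE1 is among those first described, had 219 CPM in induced and 224 CPM in control cultures (log2 fold change -0.02 ± 0.11).

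Snai1 (ENSMUSG00000042821, chromosome 2, 167538195 to 167542814, plus strand) is the founding Snail gene of mammals and a direct repressor of Cdh1. It was scarce, at 4.11, 5.26, 3.86 and 3.21 CPM in induced libraries, against 2.91, 2.45, 2.06 and 3.06 CPM in controls. The groups did not overlap, although induced 4 was only just above control 4. These levels rest on 33 to 61 reads per induced library and 20 to 29 per control. The log2 fold change was 0.63 ± 0.21, and the gene was not called. The SD among induced libraries, 0.29 on the log2 scale, was not far above the 0.21 from counting alone, and in controls the observed 0.25 was below the 0.29 from counting.

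Snai2 (ENSMUSG00000022676, chromosome 16, 14705852 to 14709385, plus strand), known as Slug and a marker of migrating neural crest, was as scarce. It had 3.56, 2.56, 2.25 and 2.66 CPM in induced libraries, against 3.86, 2.86, 2.06 and 2.86 CPM in controls. The groups overlapped throughout, and in both the first differentiation was the highest. The log2 fold change was -0.06 ± 0.23, from 25 to 53 reads per induced and 20 to 36 per control library, and it was 0.08 without control 1.

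Zeb1 (ENSMUSG00000024238) is a repressor of epithelial genes that also keeps neural progenitors in the germinal zone. It had 68.6, 62.7, 78.1 and 99.5 CPM in induced libraries, against 66.6, 77.3, 76.0 and 86.1 CPM in controls. The induced libraries spanned the whole control range, with induced 4 the highest of all 8. The log2 fold change was -0.00 ± 0.13, and it lay between -0.13 without induced 4 and 0.09 without induced 2. Of its exon bases 198 (1.93%) are shared with Gm10125 on the opposite strand.

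Zeb2 (ENSMUSG00000026872, chromosome 2, 44983632 to 45117395, minus strand), a ZEB factor of neural crest and of cortical neurons, was the only one of the 10 with a log2 fold change below -0.1. It had 57.8, 56.2, 75.7 and 81.7 CPM in induced libraries, against 54.6, 87.8, 103.9 and 92.3 CPM in controls. Controls 2, 3 and 4 lay above every induced library, while control 1 was the lowest of all 8. The log2 fold change was -0.30 ± 0.19, and the gene was not called with all libraries. Without control 1 it was -0.50 ± 0.13 and passed the threshold of limma. Zeb2 has 19.9 kb of exon sequence, more than 99.2% of genes, and control 1 is the library in which the 10% of genes with most exon sequence had a median log2 difference of -0.35. That median was 0.01 in control 2, 0.20 in control 3 and 0.14 in control 4. The part of exon sequence length in the Zeb2 values of the controls was not tested. Of the exon bases 653 (3.27%) are shared with the antisense gene Zeb2os, and whether reads were counted by strand is not given in the sources used here.

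**Figure D2:**
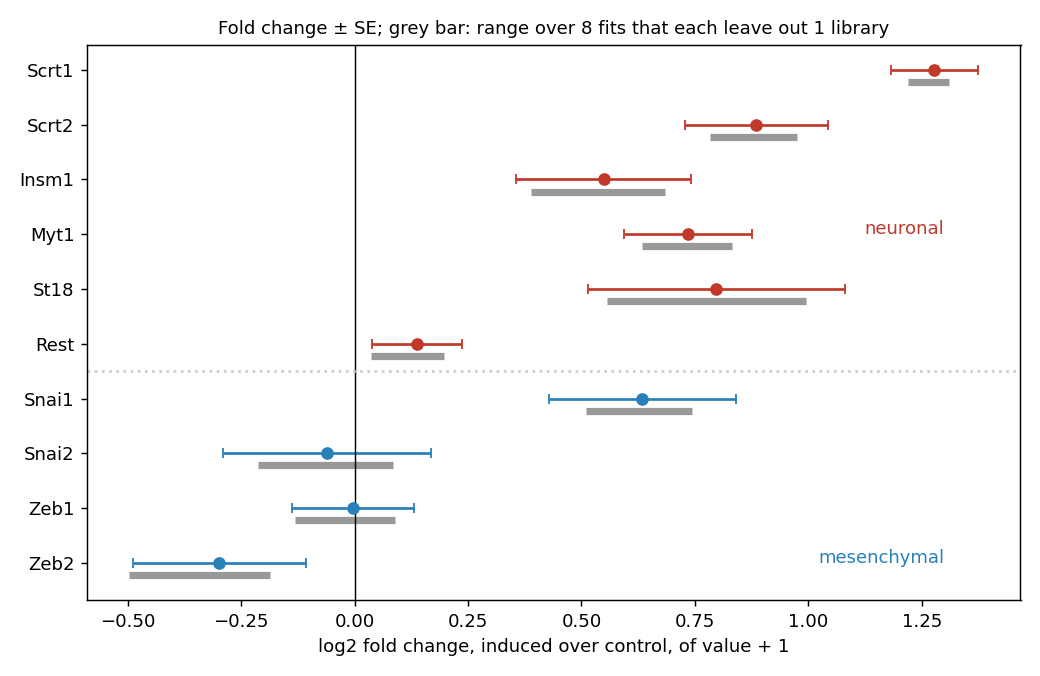
Log2 fold change of each factor, induced over control, on the log2(value + 1) scale (point, with bars of ± 1 SE), and below it in grey the range over the 8 fits that each leave out 1 library. Neuronal factors are red and mesenchymal factors blue; Scrt1 lies at 1.28, Zeb2 at -0.30, and the grey bars of Snai2 and Zeb1 reach both sides of 0.

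The induced libraries did not move as a block. In Scrt2, Insm1, Myt1, St18, Zeb1 and Zeb2, induced 3 and 4 were each above induced 1 and 2. Taken against the control mean of each gene, the median over the 6 neuronal factors was 0.51, 0.33, 0.94 and 1.11 (log2) in the induced libraries, while the 4 controls had -0.13 to 0.10. For the 4 mesenchymal factors it was 0.09, -0.21, -0.04 and 0.15 in induced libraries and between -0.17 and 0.17 in controls. Single factors overlapped between the classes: Snai1 stood at 1.01 in induced 2, above every neuronal factor but Scrt1, and in induced 1 Snai1 (0.66) and Snai2 (0.32) stood above Rest (0.23) and Insm1 (0.22). Scrt1 did not have induced 3 and 4 above induced 1 and 2, with 1.33, 1.18, 1.27 and 1.33. Rest (0.23, 0.14, 0.13 and 0.05) and Snai1 (0.66, 1.01, 0.57 and 0.30) had induced 3 and 4 below induced 1 and 2. The median SD over 13553 genes was 0.11 (log2) among induced and 0.19 among control libraries. All 10 factors except Scrt1 and Rest exceeded the induced median at least 2-fold, with SDs of 0.24 (Myt1) to 0.62 (St18). For Snai2, at 25 to 53 reads, the SD of 0.27 among induced libraries was close to the 0.26 that counting alone gives.

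**Figure D3:**
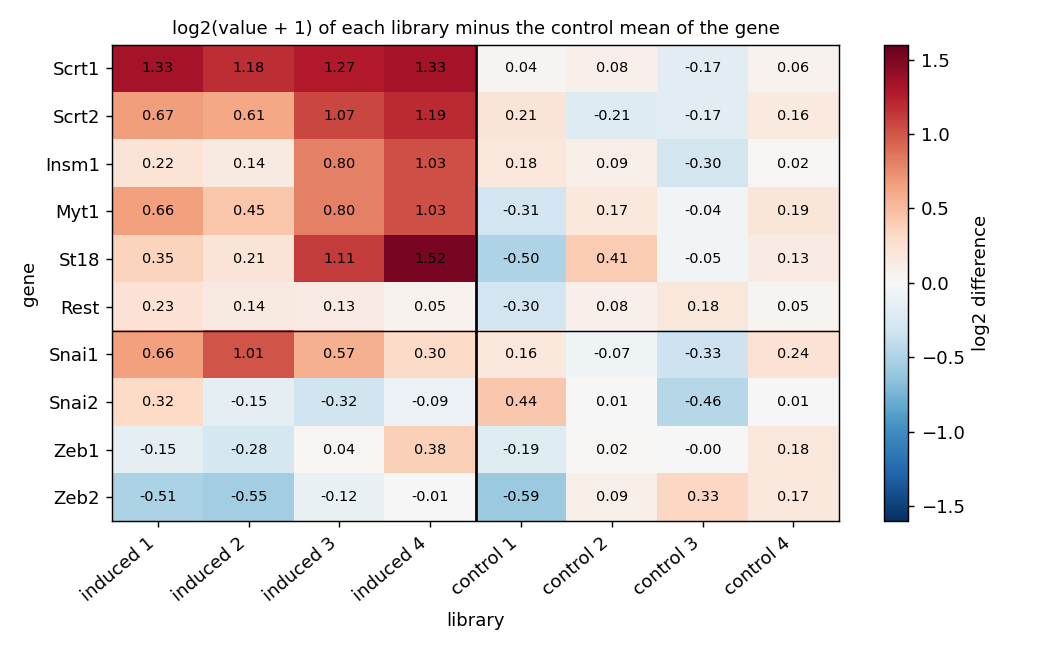
Difference of log2(value + 1) in each library from the control mean of the gene, with the 10 factors in rows, neuronal above mesenchymal, and libraries in columns, induced left of control. St18 reaches 1.52 in induced 4, Scrt1 stays within 1.18 to 1.33 across the induced libraries, and Zeb2 stands at -0.59 in control 1.

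Levels of different genes were compared per kb of exon sequence, in CPM per kb. The exon sequence is the union of all annotated exons of a gene, which can be longer than the transcript expressed. The order depends on this length, and the SDs do not cover it. In induced cultures Rest was the highest at 36.3 ± 1.84, followed by Insm1 at 11.1 ± 3.35, Myt1 at 7.95 ± 1.35, Zeb1 at 7.52 ± 1.57, Scrt2 at 6.75 ± 1.35 and Scrt1 at 6.56 ± 0.31. Lower were St18 at 3.56 ± 1.54, Zeb2 at 3.40 ± 0.64, Snai1 at 2.53 ± 0.53 and Snai2 at 1.36 ± 0.28. Within this order the intervals of mean ± SD did not touch between Rest and Insm1, Scrt1 and St18, or Snai1 and Snai2; other neighbours did not differ beyond their spread. In controls the order began with Rest at 33.2 ± 4.57, Zeb1 at 7.45 ± 0.78, Insm1 at 7.39 ± 1.01, Myt1 at 4.77 ± 0.73 and Zeb2 at 4.24 ± 1.06. It went on with Scrt2 at 3.62 ± 0.54, Scrt1 at 2.70 ± 0.21, St18 at 1.96 ± 0.49, Snai1 at 1.62 ± 0.28 and Snai2 at 1.44 ± 0.37. There the intervals did not touch between Rest and Zeb1, Insm1 and Myt1, Scrt2 and Scrt1, or Scrt1 and St18.

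Epithelial genes, the class that Snail and ZEB proteins repress, were higher in part. Of 16 measured, 5 (31.3%) were higher and 0 lower in induced cultures, beside 4.55% and 2.26% of all genes. The median log2 fold change was 0.44. The number was 2 without induced 1, induced 2 or control 2, 3 without induced 4 and 8 without control 1. Cdh1, which encodes E-cadherin and is a known target of Snai1, Zeb1 and the Scratch proteins, had 371, 367, 332 and 339.9 CPM in induced libraries, against 222, 241, 254 and 286 CPM in controls (log2 fold change 0.50 ± 0.08, limma adjusted p = 0.00808). The groups were clearly apart. Krt8, an epithelial keratin, had 237 ± 6.95 CPM in induced and 162 ± 22.1 CPM in control cultures (0.56 ± 0.09, limma adjusted p = 0.00741). Dsp, the desmosomal plaque protein, had 96.3 ± 4.05 CPM in induced and 60.2 ± 15.8 CPM in control cultures (0.72 ± 0.16, limma adjusted p = 0.0239), and the polarity protein Crb3 had 14.3 ± 2.59 CPM in induced and 8.58 ± 0.27 CPM in control cultures (0.72 ± 0.14, limma adjusted p = 0.0143). Krt18 was the other called gene. Cdh1 and Krt8 remained called without any 1 library, Crb3 in 5 and Dsp in 3 of the 8 such fits. Of the pluripotency markers, whose cells also express Cdh1, Nanog, Zfp42 and Esrrb were called higher, while Pou5f1 had 443 CPM in induced and 538 CPM in control cultures (log2 fold change -0.28 ± 0.10, limma adjusted p = 0.125). The summed levels of the 4 overlapped between the groups, and their part in the epithelial values was not tested.

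Among 19 partners and other regulators of the epithelial-mesenchymal transition, 3 (15.8%) were higher and 0 lower, beside 4.55% and 2.26% of all genes. Their median log2 fold change was 0.15. The number called higher was 1 without induced 1, 2 or 3, or without control 2 or 4. Median-of-ratios scaling gave 2 higher and 1 lower (Smad3), and upper quartile scaling gave 1 higher and 1 lower (Smad3). Grhl2, a factor that maintains epithelia and is opposed by Zeb1, had 27.7, 25.5, 27.0 and 27.7 CPM in induced libraries, against 15.2, 16.0, 16.4 and 19.4 CPM in controls (0.69 ± 0.10, limma adjusted p = 0.00367), and it kept its call without any 1 library. Esrp1, a splicing factor of epithelial cells, had 49.6 ± 2.51 CPM in induced and 38.7 ± 4.31 CPM in control cultures (0.36 ± 0.09, limma adjusted p = 0.0438). Ajuba, a LIM protein that serves as a Snail corepressor, had 136 ± 11.5 CPM in induced and 108 ± 3.42 CPM in control cultures (0.33 ± 0.08, limma adjusted p = 0.0264). Esrp1 kept the call in 2 and Ajuba in 3 of the 8 fits without 1 library. Esrp1 also lost it under median-of-ratios (limma adjusted p = 0.0707) and upper quartile scaling (limma adjusted p = 0.0703), and Ajuba lost it under upper quartile scaling (limma adjusted p = 0.0515). Twist1, another driver of the transition, had 10.2 CPM in induced and 12.2 CPM in control cultures and did not pass the test (limma adjusted p = 0.308). Twist2 and Ovol1 were on the list but had no entry under their symbols among the 14954 genes.

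The 12 mesenchymal genes measured had a median log2 fold change of 0.16. Of these, 1 (8.33%) was higher and 0 lower, beside 4.55% and 2.26% of all genes. It was Acta2, smooth muscle actin, at 158, 165, 140.2 and 134 CPM in induced libraries, against 90.1, 70.4, 56.2 and 86.0 CPM in controls (1.00 ± 0.14, limma adjusted p = 0.00329). There were 2 calls without control 1 or without control 4. Vim, the intermediate filament of mesenchyme and also of radial glia, had 548 CPM in induced and 672 CPM in control cultures (-0.29 ± 0.14, limma adjusted p = 0.222), and N-cadherin (Cdh2) had 149 CPM in induced and 163 CPM in control cultures (-0.14 ± 0.12, limma adjusted p = 0.528).

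Neural crest markers, which mark cells that use Snai2 and Zeb2, split in direction. Of 17 measured, 4 (23.5%) were higher and 4 (23.5%) lower, beside 4.55% and 2.26% of all genes. The summed level of the 17 was 323 to 377 CPM in induced and 335 to 374 CPM in control libraries. The total of calls was 3 without induced 1 or control 2 and 4 without induced 2. Ednrb, the endothelin receptor of crest cells and radial glia, had 11.6, 9.72, 27.8 and 32.5 CPM in induced libraries, against 59.5, 67.8, 48.7 and 67.9 CPM in controls (-1.75 ± 0.34, limma adjusted p = 0.0144). Sox8 had 0.75 ± 0.21 CPM in induced and 2.25 ± 0.29 CPM in control cultures (-1.55 ± 0.26, limma adjusted p = 0.00808). Sox9, also a radial glia factor, had 8.21 ± 2.13 CPM in induced and 16.1 ± 2.59 CPM in control cultures (-0.99 ± 0.19, limma adjusted p = 0.0143). In the other direction Tfap2b, a crest and neuronal factor, had 55.3 ± 9.51 CPM in induced and 30.0 ± 4.44 CPM in control cultures (0.88 ± 0.14, limma adjusted p = 0.00508). Ednrb kept its call in 6, Sox9 in 5 and Sox8 and Tfap2b in all 8 of the fits without 1 library. Sox10 was on the list but had no entry under its symbol among the 14954 genes.

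Fibroblast markers were followed because the stem cells had been propagated on mouse embryonic fibroblasts. Of 11 measured, limma called 0, beside 6.81% of all genes. An unadjusted p was under 0.05 for 5, and limma-voom called 0. Without control 3 there was 1 call, lower. The summed level was 257 to 311 CPM in induced and 272 to 300.3 CPM in control libraries. None of the 11 was at 0, but nearly no gene of any kind was, so this does not show that fibroblasts were present. Pdpn was the most abundant, at 77.0 ± 13.6 CPM in induced and 81.8 ± 11.4 CPM in control cultures (limma adjusted p = 0.718), followed by the matrix protein Fbn1 at 43.3 ± 6.91 CPM in induced and 48.4 ± 15.2 CPM in control cultures (limma adjusted p = 0.778). Dpt and S100a4 were on the list but had no entry under their symbols among the 14954 genes.

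Proneural and early neuronal regulators, with which the Scratch genes, Insm1 and Myt1 are expressed in the embryo, were also higher in part. Of 24 measured, 11 (45.8%) were higher and 0 lower, beside 4.55% and 2.26% of all genes. The median log2 fold change was 0.49. The number called higher was 7 without induced 1, 2 or 3 or control 2. Nhlh2, a bHLH factor of newborn neurons, had 85.3, 76.0, 84.5 and 101.6 CPM in induced libraries, against 39.6, 42.4, 30.8 and 41.2 CPM in controls (1.18 ± 0.12, limma adjusted p = 0.000645). Ebf2, a factor of early-born neurons, had 37.4 ± 7.17 CPM in induced and 16.5 ± 2.98 CPM in control cultures (1.18 ± 0.16, limma adjusted p = 0.00303). Both kept their call without any 1 library. Onecut1 had 7.88 ± 0.88 CPM in induced and 3.21 ± 1.76 CPM in control cultures (1.48 ± 0.37, limma adjusted p = 0.0397) and Onecut2 had 49.8 ± 10.5 CPM in induced and 21.8 ± 9.81 CPM in control cultures (1.29 ± 0.31, limma adjusted p = 0.033). Each of them kept its call in 3 of the 8 fits without 1 library. The proneural factor Neurog2, at 17.7 CPM in induced and 16.7 CPM in control cultures (limma adjusted p = 0.939), did not pass the test.

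**Figure D4:**
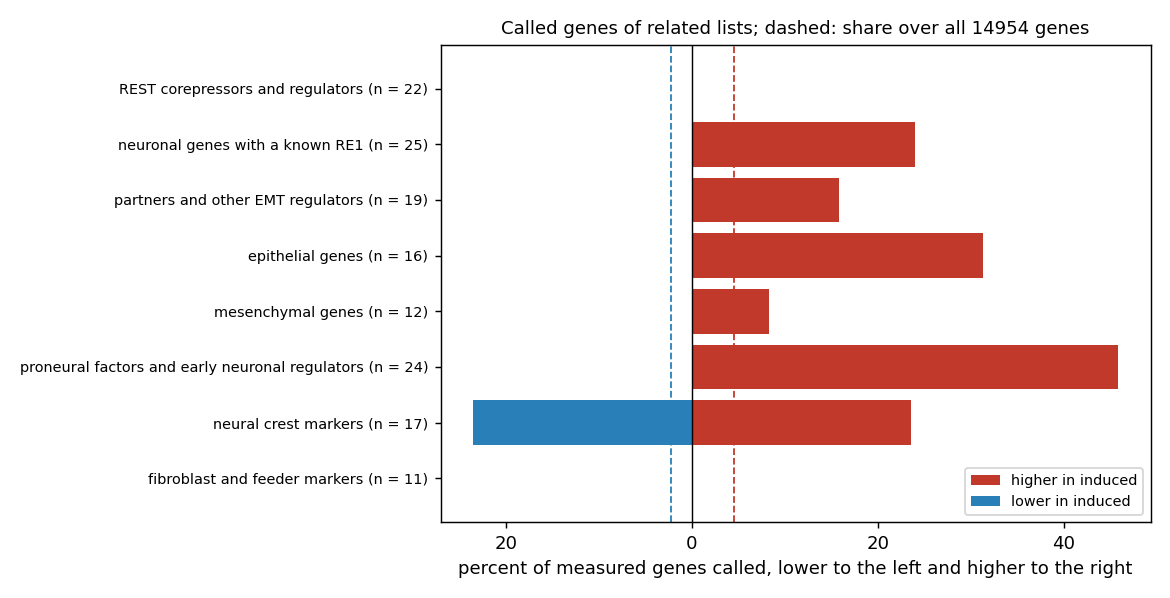
Percent of the measured genes of each related list that limma called higher (red, to the right) or lower (blue, to the left) in induced cultures, with dashed lines at the shares over all 14954 genes (4.55% higher, 2.26% lower). The proneural list reaches 45.8% higher, the RE1 list 24.0%, and the REST corepressor and fibroblast lists hold no bar.

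Of 5 family relatives 2 were measured and limma called 0, beside 6.81% of all genes. An unadjusted p was under 0.05 for 1, and limma-voom called 0. Myt1l, a close relative of Myt1 and St18, had 5.56, 6.91, 4.21 and 4.11 CPM in induced libraries, against 2.46, 3.51, 3.51 and 2.86 CPM in controls, groups that did not overlap (0.73 ± 0.21, limma adjusted p = 0.0631). Snai3 had 1.69 ± 0.59 CPM in induced and 1.45 ± 0.52 CPM in control cultures (0.22 ± 0.33, limma adjusted p = 0.736). Gfi1, Gfi1b and Insm2 had no entry under their symbols among the 14954 genes.

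The genes closest in profile to each factor were found by the root mean square difference of centred log2 values over the 8 libraries, among genes with a mean of at least 2 CPM. These points share libraries and depth, so the likeness is a description. Nearest to Scrt1 was Nhlh2 (0.11), then Pkdcc (0.15) and Dgkk (0.16). Scrt2 was nearest to Eya2 (0.12), followed by Tubb3 and Ebf3 (0.15 each). Myt1 lay nearest to the potassium channel Kcnc1 (0.08), the microtubule protein Map2 (0.09) and the GDNF co-receptor Gfra1 (0.11). Insm1 was matched by Rgs16 (0.07), Kif19a (0.09) and Gata2 (0.11). St18 had no profile as close, with Srrm4 (0.22), Slc1a2 (0.23) and Neurod4 (0.24) the nearest.

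Rest was tracked by Morc3 (0.02), Pcdhgc3 and Mtdh (0.04 each), all of which were low in control 1. Morc3, for example, had 144, 138, 129.6 and 129 CPM in induced libraries, against 99.6, 132, 139 and 126 CPM in controls. Zeb2 was nearest to Rfx3 (0.06), Armcx4 (0.08) and Prox1 (0.09), which also had low values in control 1 and in induced 1 and 2. Zeb1 was nearest to Phldb2, Dpysl5 (0.06 each) and Wnt5a (0.07). The scarce genes had Gjb2, Nxph4 and Irak2 (0.12 to 0.14) next to Snai1 and Nhlrc1, Ccdc28b and Gm3699 (0.11 to 0.12) next to Snai2.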

How the data were processed

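RNA-seq libraries from 8 cultures, 4 Bcl6-induced and 4 control, were prepared from mRNA by the TruSeq stranded method, as the labels' protocols state. STAR 2.5.3a, HTSeq 0.9.1, edgeR 3.20.1 and build mm10 are named in the submitters' processing notes. The authors deposited 1 table of 14954 genes whose values are a score: integers with library totals of 19.93 M to 19.96 M. At least 99.6% of them lay on multiples of a library-specific step, rounded up, against at most 79.3% for a shifted step. The step gave the reads. Decimal commas had split the lines into more cells than header names, so lines were rejoined, and the authors' statistics were not used.

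limma 3.58.1 (R 4.3.3, variance trend) compared log2(value + 1) between groups, with Benjamini-Hochberg adjustment over all genes and a call at an adjusted p under 0.05. Fold changes of scarce genes are understated by the pseudocount. The test was tried on simulated data in which the noise of each gene was drawn on its own. Those data held no length trend such as that of control 1, so nothing is read from the trial. Coordinates and exon lengths, each the union of a gene's annotated exons, come from GENCODE vM21 (GRCm38).

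Members and lists were chosen with earlier results of these data known. Named are all 10 members, Bcl6, up to 4 called genes per list with the largest absolute fold change (where none was called, the 2 most abundant) and the 3 nearest profiles of each member. Stmn2, Srrm4, Twist1, Smad3, Pou5f1, Nanog, Zfp42, Esrrb, Vim, Cdh2, Neurog2, Krt18, Chrnb2, Mapk8ip2 and T were named after their values were seen. Alternatives were 2 pseudocounts, a filter, 2 scalings, array weights, a replicate block, leaving out each library and, added after seeing the data, limma-voom.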

Additional observations from a re-analysis of the deposited data

How the results depend on the processing

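Scrt1, Scrt2 and Myt1 were called in all 8 fits that leave out 1 library and under all 8 other settings, with log2 fold changes of 1.22 to 1.31, 0.78 to 0.98 and 0.56 to 0.83. Insm1, St18 and Rest were called in none. These calls describe the contrast on which the factors were chosen. Snai1 (0.67) and Zeb2 (-0.52) were called with array weights, and Snai2 and Zeb1, never called, changed sign in 3 and 4 settings. Over all genes the 1019 calls (66.8% higher) became 2507 with array weights (65.5% higher), 960 with median-of-ratios scaling (536 higher, 424 lower) and 975 with upper quartile scaling (501 higher, 474 lower); these scalings moved the median of all genes by -0.03 and -0.05. They numbered 308 to 1697 without 1 library. Array weights gave 3 calls among REST corepressors (2 higher, 1 lower), 10 among RE1 genes and 5 among partners (3 higher, 2 lower). They gave 10 among epithelial genes (9 higher, 1 lower), 3 among mesenchymal genes, 1 among family relatives and 1 among fibroblast markers. Upper quartile scaling gave 1 REST corepressor, and it, median-of-ratios scaling and the filter at 2 CPM each gave 1 fibroblast marker. Without 1 library the lists held 0 to 3 calls for REST corepressors, 1 to 7 for RE1 genes, 1 to 4 for partners, 2 to 8 for epithelial genes, 1 to 2 for mesenchymal genes, 7 to 12 for proneural regulators, 3 to 10 for crest markers and 0 to 1 for fibroblast markers. The cause of these changes was not tested. No label says that equal replicate numbers mark a shared batch, and the values do not settle it. Deviations of same-numbered libraries correlated at 0.05, 0.04, -0.02 and 0.32, the last being the largest of all induced and control pairs. Induced 2 was closer to control 1 (0.29) than to control 2. With a replicate block the SE fell for some factors, as for Zeb2 from 0.19 to 0.12. It rose for Scrt1, Rest and Snai1, for Snai1 from 0.21 to 0.22. The replicate block gave 827 calls, 1 among REST corepressors, 2 higher and 1 lower among partners, and left the calls of the 10 factors as they were, while Vgf (limma adjusted p = 0.0518), Sez6 (0.0562) and Esrp1 (0.0644) lost theirs. Depth limits Snai1 and Snai2, at 20 to 61 reads per library.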
